A study of Homo sapiens with 6 samples.

Results

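The genes described here are 10 genes of the YAP and TEAD system, chosen by name from the 58884 genes of an RNA sequencing matrix of esophageal cancer cells. They include the coactivator genes YAP1 and WWTR1 (which encodes TAZ), the DNA-binding factor gene TEAD1, and AJUBA, which encodes a protein that acts on the pathway. The rest, CCN1, CCN2, ANKRD1, AMOTL2, LATS2 and AXL, are widely used as readouts of the pathway. Each gene had a single row in the matrix, and all 10 passed the filter on low values that left 16701 genes to test. The matrix lists CCN1 and CCN2 under their older symbols, CYR61 and CTGF, and both were matched by Ensembl identifier.

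The 6 libraries came from KYSE450 cells and KEAP1null-KYSE450 cells, with 3 libraries of each line. KYSE450 is an established line of human esophageal squamous cell carcinoma (ESCC) in which NRF2 is wild type. KEAP1null-KYSE450 was made from it with CRISPR/Cas9 and a guide to exon 2 of KEAP1, and it is a single clone. An effect of KEAP1 loss and a difference particular to this clone therefore cannot be told apart. Neither line received a treatment, and both grew in RPMI1640 medium with fetal bovine serum. No source used here says whether the libraries of a line came from separate cultures, so p-values measure the spread between these libraries, which may be technical. Values are normalized counts, that is, reads per gene divided by a factor for each library.

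KEAP1 is the adaptor that directs the transcription factor NRF2 to degradation. Its mRNA did not differ detectably between the lines (log2 fold change -0.02, adjusted p = 0.90), and a gene count does not show an edit. NQO1, a classical NRF2 target, was higher in KEAP1null-KYSE450 in every library, with a log2 fold change of 2.70 (adjusted p = 3.9e-10). The libraries summed to between 54829313 and 57380170 normalized counts. All 9 squamous epithelial markers were above the filter on low values, with a summed level of 361931 to 481416 normalized counts in KYSE450 and 588147 to 732237 in KEAP1null-KYSE450. KRT5 was called higher among them, though not under quantile normalization (log2 fold change 0.87), and KRT6A, KRT14 and KRT17 were called lower. The means of KRT5 were 208100 normalized counts in KYSE450 and 568248 in KEAP1null-KYSE450, so the higher sum came from KRT5. By adjusted p alone, 6 of the 9 were lower and 2 higher, beside 25.5% and 24.3% of all genes tested. In 7 of the 9 the log2 fold change was below 0. Of 6 fibroblast markers, COL1A1 alone passed the filter, at 607 to 839 normalized counts in KYSE450 and 333 to 431 in KEAP1null-KYSE450, and the summed level of the list was 622 to 853 and 349 to 436. In every library, 2 of these 6 were at or below the floor of 3 reads. The 4 endothelial markers summed to at most 74.8 and the 5 leukocyte markers to at most 16.2 normalized counts in any library, with PECAM1 and MS4A1 at 0 in all 6. CDH5, at 10.7 to 28.9 normalized counts in KYSE450 and 1.01 to 3.06 in KEAP1null-KYSE450, was the endothelial marker called lower. The part of these marker differences in the results was not tested.

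YAP1 and TAZ are closely related coactivators that do not bind DNA themselves. When the Hippo kinases are active, LATS1 and LATS2 phosphorylate both proteins, which are then held in the cytoplasm and degraded. When the kinases are inactive, as in cells that are spread, stretched or sparse, YAP1 and TAZ enter the nucleus and bind TEAD factors at enhancers and promoters, where CCN1, CCN2 and ANKRD1 are among the best known targets. Several targets, such as LATS2 and AMOTL2, encode inhibitors of YAP1 and TAZ and so form a feedback loop. The activity of YAP1 and TAZ is set largely by phosphorylation and location, which mRNA levels do not measure. In a squamous epithelium, YAP1 is a feature of the proliferating basal layer.

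The TEAD binding motif was searched as GGAATG on both strands in the 250 bases upstream of the transcription starts that RefSeq gives (build GRCh38.p14). The table held 12 such windows for 8 of the 10 genes. CCN1 and TEAD1 had no entry. The windows of CCN2 and ANKRD1 are shown because they hold several matches, and that of AXL because its level differed most between the lines among the 10 genes. Each sequence is read in the direction of its gene, and capitals mark the TEAD motif or its reverse complement.
CCN2, chr6:131951373-131951622, minus strand: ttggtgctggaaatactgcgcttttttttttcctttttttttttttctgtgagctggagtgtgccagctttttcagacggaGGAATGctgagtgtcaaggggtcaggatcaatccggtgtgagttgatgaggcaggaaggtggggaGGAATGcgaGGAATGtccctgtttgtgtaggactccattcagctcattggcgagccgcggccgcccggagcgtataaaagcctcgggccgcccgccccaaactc
ANKRD1, chr10:90921088-90921337, minus strand: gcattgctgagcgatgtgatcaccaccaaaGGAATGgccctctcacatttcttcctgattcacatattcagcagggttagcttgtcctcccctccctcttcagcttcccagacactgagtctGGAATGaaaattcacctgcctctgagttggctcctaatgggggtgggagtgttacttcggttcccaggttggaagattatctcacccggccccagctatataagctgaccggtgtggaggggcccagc
AMOTL2, a stretch at chr3:134374499-134374528, minus strand: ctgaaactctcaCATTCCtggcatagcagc
AXL, upstream start, chr19:41218973-41219222, plus strand: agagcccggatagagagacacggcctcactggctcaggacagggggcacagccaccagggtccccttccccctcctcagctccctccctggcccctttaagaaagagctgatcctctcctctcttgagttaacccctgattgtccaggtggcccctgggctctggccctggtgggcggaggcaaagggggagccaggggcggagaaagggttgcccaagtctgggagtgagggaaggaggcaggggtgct

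The CCN2 window held 3 matches, 169, 104 and 95 bases before the start. The ANKRD1 window held 2, at 220 and 128 bases, and between them a match to the AP-1 motif TGANTCA, at 195 bases. AMOTL2 had a match 69 bases before the second of its annotated starts, and YAP1 had one 162 bases before its start. The window of the upstream AXL start and both windows of WWTR1 held none. A second AXL start, inside the gene, had a TEAD match at 212 bases and, at 47 bases, the core of the NRF2 binding motif (TGACNNNGC). LATS2 had an NRF2 core match 12 bases before its start, and AJUBA had a TEAD match 59 bases before its internal start. Over the 35116 windows of that length in the table, 11.9% held at least 1 TEAD match, 0.94% held at least 2 and 0.0826% held at least 3. The AP-1 motif was in 6.57% and the NRF2 core in 10.9% of them. A match is a run of letters, not a measured binding site, and the assay has no readout of binding.

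**Figure D1:**
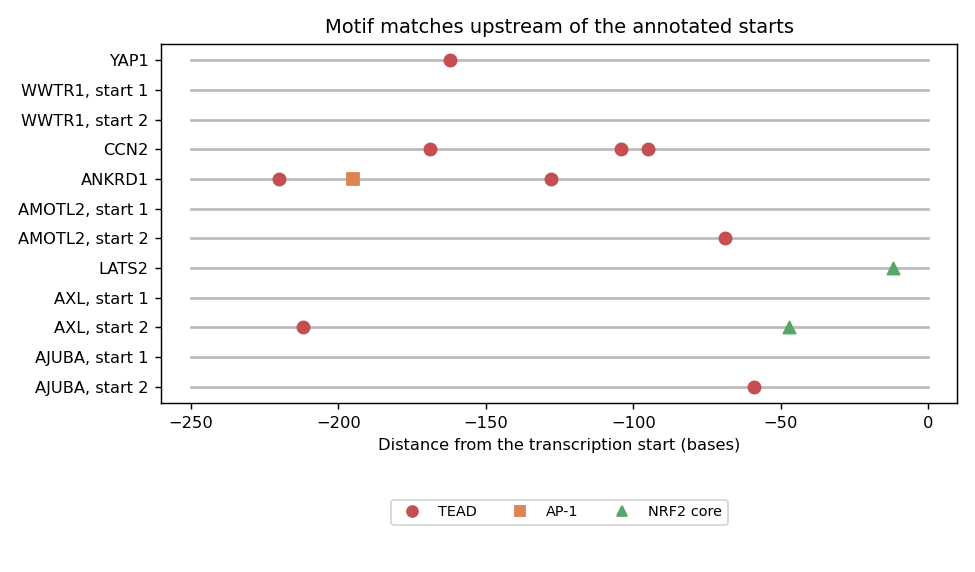
Matches to 3 motifs in the 12 windows upstream of annotated starts, plotted by distance from the start in bases, with 1 grey line for each window. Red circles are TEAD, orange squares AP-1 and green triangles NRF2 core matches; CCN2 has 3 TEAD matches and ANKRD1 has 2.

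Between the lines, CCN2 rose and CCN1 and AXL fell, while the coactivators and TEAD1 did not pass both thresholds. A gene is called here when it passes 2 thresholds: a limma p, adjusted over the 16701 genes tested by the Benjamini-Hochberg method, of under 0.05, and a log2 fold change of 1 or more in size. All log2 fold changes are KEAP1null-KYSE450 against KYSE450 on the scale of log2(normalized count + 1), which understates the change of low genes, and ± marks the SD over 3 libraries. A fold is 2 to the power of that log2 fold change and can differ slightly from the ratio of the printed means. By this rule 1 of the 10 genes was called higher and 2 were called lower. Of all genes tested, 12.2% were called higher (2045 genes) and 5.98% lower (999 genes). That split depends on the normalization. Quantile normalization, which gives every library the same distribution, gave 1388 higher and 1289 lower, while rescaling to equal totals gave 2122 and 925. By adjusted p alone, 2 of the 10 were higher and 4 lower, beside 24.3% and 25.5% of all genes tested. The libraries of the lines did not overlap for 3 genes that were higher and 5 that were lower in KEAP1null-KYSE450, beside 28.4% and 29.3% of all genes tested. With so few genes, these shares do not set the 10 apart from the rest of the transcriptome. Their median log2 fold change was -0.31, beside 0.004 for all genes tested.

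**Figure D2:**
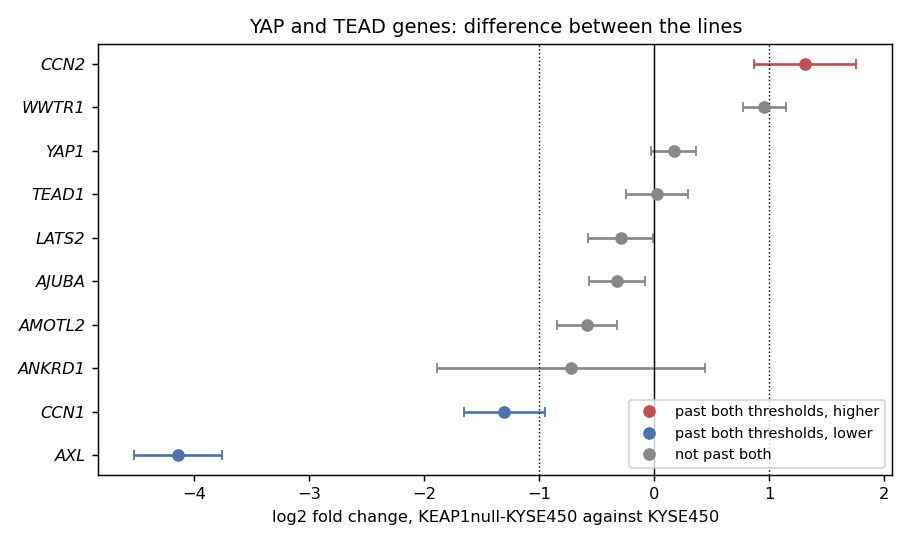
Log2 fold change of the 10 genes, KEAP1null-KYSE450 against KYSE450, with points at the limma estimate, bars for the 95% confidence interval and dotted lines at -1 and 1. CCN2 in red was called higher and CCN1 and AXL in blue were called lower, while the 7 genes in grey did not pass both thresholds.

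YAP1 (ENSG00000137693, chr11:102110447-102233424, plus strand in hg38), the main coactivator, was the most abundant of the 10 genes per exon length in both lines. The KYSE450 libraries held 11987, 11412 and 11119 normalized counts, and those of KEAP1null-KYSE450 held 13783, 12995 and 12097. The KEAP1null-KYSE450 libraries were all above the KYSE450 libraries, but the ranges nearly touched. The means were 11506 ± 442 and 12958 ± 843, and the log2 fold change of 0.17 (SE 0.091) had a 95% confidence interval of -0.028 to 0.37 with an adjusted p of 0.14. Under quantile normalization it was 0.36 with an adjusted p of 0.0042. A change of more than about 0.37 on the log2 scale lies outside the interval of the first fit.

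WWTR1 (ENSG00000018408, chr3:149517235-149736714, minus strand) encodes TAZ, the paralogue of YAP1. Its normalized counts were 2751, 2805 and 2757 in KYSE450 and 5335, 5269 and 5559.8 in KEAP1null-KYSE450. The libraries within each line lay close together, and the lines were far apart. The mean was 2771 ± 29.7 against 5388 ± 152, a 1.94-fold difference (log2 fold change 0.96, SE 0.086, adjusted p = 2.3e-06). It was just under the fold change threshold, which quantile normalization took it past, at 1.09. An antisense gene, WWTR1-AS1, shares exon positions with WWTR1, and its normalized counts were 45.7 to 50.5 in KYSE450 and 108.9 to 142 in KEAP1null-KYSE450. Whether the counting used strand is not given in the sources used here, so reads of the pair cannot be told apart, but the antisense counts were a small fraction of those of WWTR1.

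Per kilobase of exon, YAP1 remained the more abundant coactivator in every library. The ratio of YAP1 to WWTR1 was 5.77, 5.39 and 5.34 in KYSE450 and 3.42, 3.26 and 2.88 in KEAP1null-KYSE450. WWTR1 made up 15.4% ± 0.548 of the pair in KYSE450 and 23.9% ± 1.63 in KEAP1null-KYSE450. The summed level of both coactivators was 2155 ± 69.0 and 2698 ± 120.3 normalized counts per kb. These ratios were computed after the values of the genes were seen and are descriptions, with no test. They also depend on the length used. With the longest annotated transcript, YAP1 lay at 2130 normalized counts per kb in KYSE450 and 2399 in KEAP1null-KYSE450, and WWTR1 at 550.1 and 1070. By that length the ratio was lower and the WWTR1 share higher in both lines.

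TEAD1 (ENSG00000187079, chr11:12674421-12944737, plus strand), 1 of 4 TEAD factors that bring YAP1 and TAZ to DNA, differed less between the lines than within KYSE450. Its normalized counts were 4246, 2923 and 3475 in KYSE450 and 3623, 3574 and 3515 in KEAP1null-KYSE450. The highest and the lowest of all 6 values were both from KYSE450. The log2 fold change was 0.03 (SE 0.12, 95% confidence interval -0.24 to 0.29, adjusted p = 0.88). Without KYSE450 library 2 it was -0.11.

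The other 3 TEAD genes were each lower in KEAP1null-KYSE450. TEAD2 had 1748, 1779 and 1737 normalized counts in KYSE450 and 488, 559.7 and 517 in KEAP1null-KYSE450, and it was called lower (log2 fold change -1.75, SE 0.11, adjusted p = 6.6e-08). TEAD4 had 3501, 2938 and 3193 against 1781, 1592 and 1770 normalized counts, a log2 fold change of -0.90 (SE 0.10, adjusted p = 1.7e-05) that lay under the fold change threshold. TEAD3 was also lower by adjusted p alone, with a log2 fold change of -0.58 (SE 0.13, adjusted p = 0.0022). Per kilobase of exon, the 4 TEAD genes together summed to 2881, 2450 and 2610 normalized counts in KYSE450 and 1490, 1449 and 1478 in KEAP1null-KYSE450. The sum was therefore 1.80-fold higher in KYSE450, while TEAD1, as a share of it, was 12.5% in KYSE450 and 22.7% in KEAP1null-KYSE450. TEAD4 held the main share in both lines, at 53.3% and 51.2%, and the share of TEAD2 was 22.4% and 11.9%. These sums and shares depend on the exon length used and are descriptions, with no test.

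The VGLL proteins bind TEAD factors at the surface that YAP1 and TAZ use. VGLL3 was low and called lower, at 77.0, 81.9 and 152 normalized counts in KYSE450 and 43.4, 39.8 and 34.3 in KEAP1null-KYSE450 (log2 fold change -1.32, SE 0.31, adjusted p = 0.0034). VGLL4, a repressor of TEAD activity, had a log2 fold change of 0.21 that missed the threshold (adjusted p = 0.0997). By adjusted p alone, VGLL4 was higher under quantile normalization (0.34, adjusted p = 0.010) and without KYSE450 library 1 (0.25, adjusted p = 0.044). VGLL1 and VGLL2 were too low to be tested. Of the 6 TEAD and VGLL genes tested, none was called higher and 2 were called lower, 4 were lower by adjusted p alone, and the median log2 fold change was -0.74. The shares over all genes tested were 12.2% called higher, 5.98% called lower and 25.5% lower by adjusted p alone. At an unadjusted limma p under 0.05, for which no share over all genes was computed, the number higher was 0. edgeR and DESeq2 on the 4 libraries with recovered reads also called 0 higher.

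**Figure D3:**
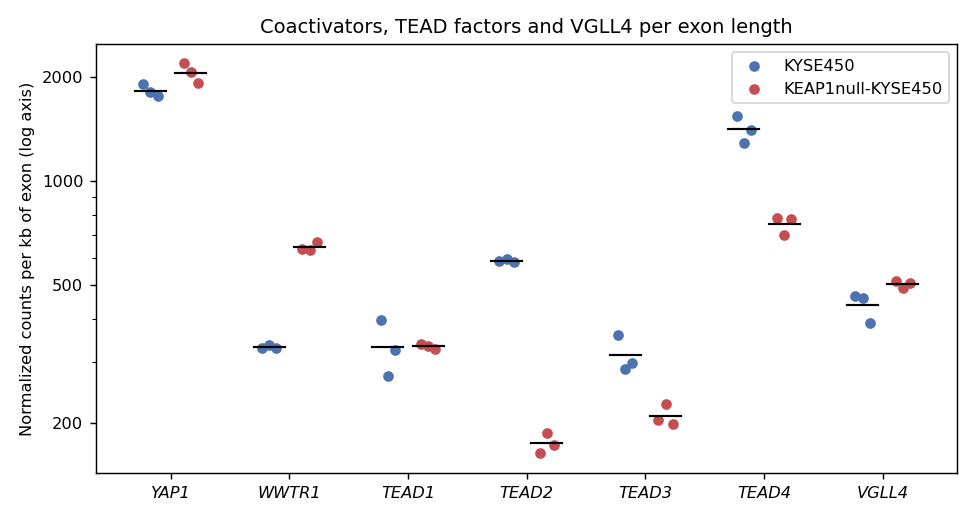
Normalized counts per kb of exon, on a log axis, of the coactivators, the 4 TEAD genes and VGLL4, with 1 point for each library and a black line at the mean of 3 libraries. WWTR1 is higher in KEAP1null-KYSE450 in red, TEAD2, TEAD3 and TEAD4 are higher in KYSE450 in blue, and the TEAD1 points overlap.

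CCN1 and CCN2, the pair of secreted matricellular proteins most often used to read YAP activity, moved in opposite directions. CCN1 (ENSG00000142871, chr1:85580761-85584589, plus strand) had 707, 552 and 711 normalized counts in KYSE450 and 288, 219 and 291 in KEAP1null-KYSE450. Every KYSE450 library was above every KEAP1null-KYSE450 library. The mean was 657 ± 90.8 against 266 ± 40.5, or 2.47-fold lower in KEAP1null-KYSE450 (log2 fold change -1.30, SE 0.16, 95% confidence interval -1.66 to -0.95, adjusted p = 3.7e-05).

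CCN2 (ENSG00000118523, chr6:131948176-131951372, minus strand) had 122, 103 and 129 normalized counts in KYSE450 and 367, 228 and 301 in KEAP1null-KYSE450. The lines did not overlap here either, with KEAP1null-KYSE450 the higher. The mean was 118 ± 13.2 against 299 ± 69.5, a fitted 2.49-fold increase (the ratio of the means was 2.53; log2 fold change 1.31, SE 0.21, 95% confidence interval 0.87 to 1.76, adjusted p = 2.1e-04). For both genes the lower end of the interval, in size, lay under the fold change threshold, and neither passed a test against a fold change of 2 (adjusted p = 0.424 for CCN1 and 0.659 for CCN2).

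In each library, the value of CCN1 and that of CCN2 come from the same RNA, so their ratio does not depend on the library factor. Per kilobase of exon, CCN1 was 3.67, 3.38 and 3.496 times CCN2 in KYSE450 and 0.496, 0.607 and 0.611 times CCN2 in KEAP1null-KYSE450. The mean ratio was 3.52 ± 0.142 and 0.571 ± 0.0655, so the more abundant transcript of the pair was CCN1 in KYSE450 and CCN2 in KEAP1null-KYSE450. The ratio was chosen after the values were seen and carries no test. Of the rest of the CCN family, CCN3 had 83.6 to 149 normalized counts over the 6 libraries with no detectable difference (log2 fold change -0.33, adjusted p = 0.29), and CCN4, CCN5 and CCN6 were at or below the floor of 3 reads in every library.

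ANKRD1 (ENSG00000148677, chr10:90912096-90921087, minus strand), a nuclear ankyrin-repeat protein best known from muscle, was the lowest of the 10 genes per exon length in both lines. It had 19.3, 29.3 and 15.8 normalized counts in KYSE450 and 6.46, 11.2 and 24.2 in KEAP1null-KYSE450. KEAP1null-KYSE450 library 3 was above 2 of the KYSE450 libraries, so the lines overlapped. The log2 fold change was -0.72 (SE 0.54, 95% confidence interval -1.89 to 0.44, adjusted p = 0.28), an interval that holds changes in both directions. It was -0.31 without KEAP1null-KYSE450 library 1, -0.49 without KYSE450 library 2, -1.19 without KEAP1null-KYSE450 library 3, -0.44 with a pseudocount of 10 and -1.39 under quantile normalization, with an adjusted p of at least 0.0611 in each. A difference was not detectable at this level of expression.

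**Figure D4:**
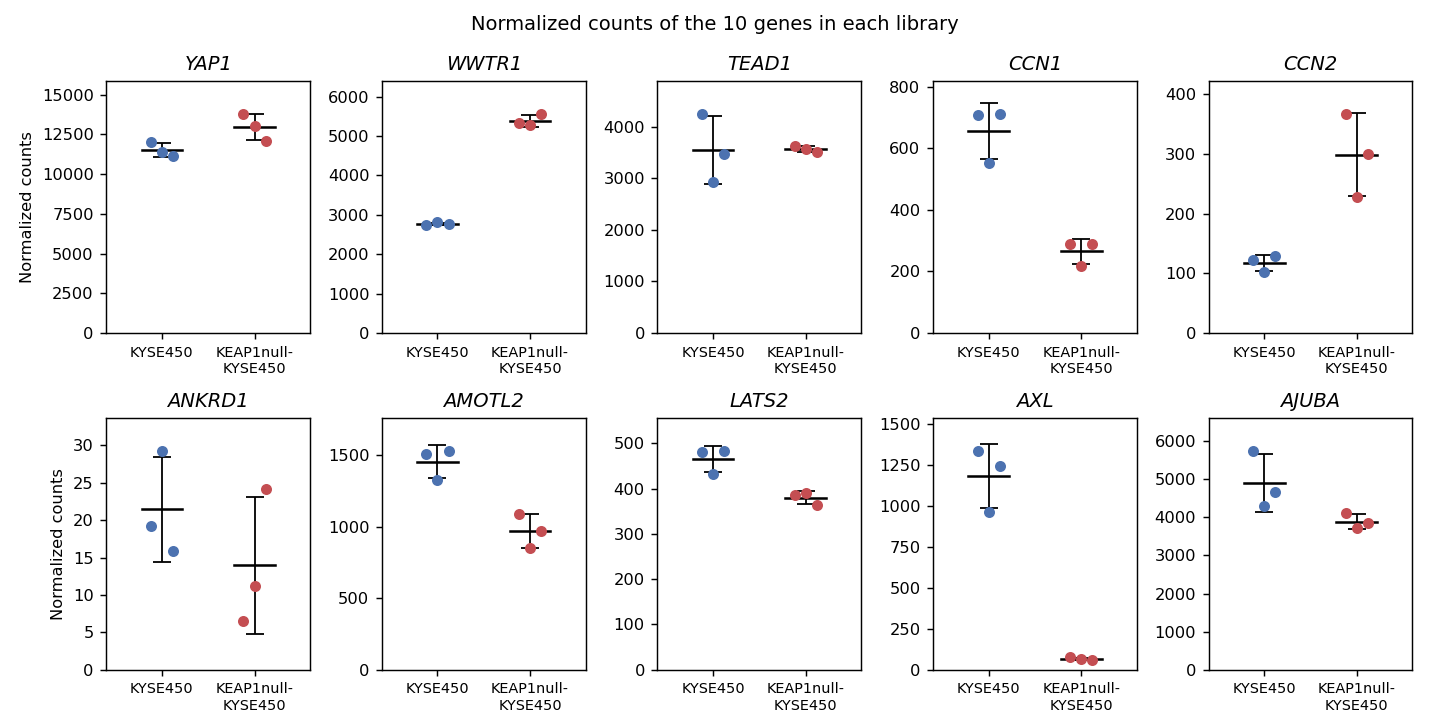
Normalized counts of each of the 10 genes, with 1 point for each library, a black line at the mean of 3 libraries, bars for the SD and a separate axis from 0 for each gene. The lines do not overlap for YAP1, WWTR1 and CCN2, which are higher in KEAP1null-KYSE450, and for CCN1, AMOTL2, LATS2, AXL and AJUBA, which are lower.

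AMOTL2, LATS2 and AJUBA encode proteins that act on the pathway itself, and all 3 had lower values in KEAP1null-KYSE450, by less than the fold change threshold. AMOTL2 (ENSG00000114019, chr3:134355347-134375479, minus strand), an angiomotin that binds YAP1 and keeps it at cell junctions, had 1509, 1325 and 1534 normalized counts in KYSE450 and 1093, 853 and 972 in KEAP1null-KYSE450. The lines were clearly separated. Its mean was 1456 ± 114 against 973 ± 120.1, 1.501-fold lower (log2 fold change -0.59, SE 0.12, adjusted p = 0.0016).

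LATS2 (ENSG00000150457, chr13:20973036-21061586, minus strand), a kinase that phosphorylates YAP1 and TAZ, had 480.2, 432 and 484 normalized counts in KYSE450 and 387, 389 and 363 in KEAP1null-KYSE450. The lines did not overlap, but the difference was small. The log2 fold change was -0.29 (SE 0.13, 95% confidence interval -0.58 to -0.0051), and the adjusted p of 0.084 missed the threshold. Quantile normalization gave an adjusted p of 0.027.

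AJUBA (ENSG00000129474, chr14:22971177-22982551, minus strand), a LIM protein that inhibits LATS kinases at junctions under tension, had 5752, 4292 and 4672 normalized counts in KYSE450 and 4102, 3717 and 3853 in KEAP1null-KYSE450. KYSE450 library 1 was well above the rest, and the highest KEAP1null-KYSE450 value was not far below the lowest KYSE450 value. The log2 fold change was -0.32 (SE 0.11, adjusted p = 0.030). It kept its sign but lost the threshold in 7 of 16 other settings. Without KYSE450 library 1 it was -0.20 (adjusted p = 0.081), without KEAP1null-KYSE450 library 2 it was -0.29 (adjusted p = 0.111) and without library 3 of that line it was -0.32 (adjusted p = 0.086). The adjusted p was 0.198 under quantile normalization, where the log2 fold change was -0.17, 0.0998 without the trend in limma, 0.091 in edgeR and 0.066 in DESeq2.

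Of the 7 genes for angiomotins, PTPN14 and Ajuba LIM proteins, 1 was called higher and none lower, beside 12.2% and 5.98% over all genes. The median log2 fold change was -0.29. At an unadjusted limma p under 0.05, for which no share over all genes was computed, 2 were lower. edgeR and DESeq2 called 0 lower. AMOTL1, an angiomotin related to AMOTL2, lay on the other side of 0. It had 4489, 3483 and 3193 normalized counts in KYSE450 and 6885, 6498 and 5843 in KEAP1null-KYSE450 (log2 fold change 0.80, adjusted p = 2.1e-04). AMOT itself had a log2 fold change of -0.43 (adjusted p = 0.098). WTIP, a LIM protein related to AJUBA, was the called gene, at 25.3 to 42.0 normalized counts in KYSE450 and 62.2 to 101.5 in KEAP1null-KYSE450 (log2 fold change 1.09, SE 0.32, adjusted p = 0.013). That call was lost without KYSE450 library 2, at 0.86, and without KEAP1null-KYSE450 library 1, at 0.88. It was also lost under quantile normalization (0.63), with a pseudocount of 10 (0.92) and in edgeR and DESeq2 (adjusted p = 0.073 and 0.12).

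None of the 16 genes of the Hippo kinase cascade was called in either direction, 6 were lower and 1 was higher by adjusted p alone, and the median log2 fold change was -0.19. Over all genes tested, 5.98% were called lower and 12.2% higher, and 25.5% were lower and 24.3% higher by adjusted p alone. At an unadjusted limma p under 0.05, 8 were lower and 1 was higher. The share over all genes at that unadjusted threshold was not computed, so these counts cannot be set against it. edgeR called 0 in either direction. WWC1 was called lower in DESeq2 (log2 fold change -1.02), without KYSE450 library 2 (-1.06) and without KEAP1null-KYSE450 library 1 (-1.08). The 3 WWC genes, which encode scaffolds that activate LATS kinases, were lower, with log2 fold changes of -0.97 for WWC1 (adjusted p = 5.6e-05), -0.95 for WWC2 (adjusted p = 7.4e-06) and -0.60 for WWC3 (adjusted p = 0.0045). NF2, the upstream tumour suppressor merlin, was lower by 0.55 on the log2 scale (adjusted p = 0.0025). Smaller differences were found for the kinases MAP4K4 at -0.36 (adjusted p = 0.021) and STK3 at -0.29 (adjusted p = 0.036) and, on the higher side, for FRMD6 at 0.27 (adjusted p = 0.033). These 3 did not hold under every setting: MAP4K4 lost the threshold in 6 of 16 other settings (adjusted p up to 0.166), STK3 in 10 (up to 0.285) and FRMD6 in 8 (up to 0.135). MAP4K4 was at -0.19 under quantile normalization and also lost the threshold without KEAP1null-KYSE450 library 2 or 3. The losses of STK3 included the fits without KYSE450 library 2 or 3 and without any 1 of the KEAP1null-KYSE450 libraries, and those of FRMD6 the fits without KYSE450 library 2 or 3 and without KEAP1null-KYSE450 library 1 or 2. LATS1 had a log2 fold change of -0.27, close to that of LATS2, and missed the threshold (adjusted p = 0.0502). LATS1 passed it with a pseudocount of 10 (adjusted p = 0.049), with a mean of at least 100 (0.048) and without KYSE450 library 2 (0.046). The core scaffold SAV1 was at -0.01 and the adaptor MOB1B at 0.00, with no detectable difference.

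AXL (ENSG00000167601, chr19:41219223-41261766, plus strand), a receptor tyrosine kinase of the TAM family that is activated by GAS6, had the widest log2 fold change of the 10 genes. It had 1338, 961 and 1243 normalized counts in KYSE450 and 74.7, 65.2 and 57.5 in KEAP1null-KYSE450. Even the lowest KYSE450 library was more than 10 times the highest KEAP1null-KYSE450 library. The mean was 1181 ± 196 against 65.8 ± 8.63, a fitted 17.6-fold lower level in KEAP1null-KYSE450 (the ratio of the means was 17.9; log2 fold change -4.14, SE 0.18, 95% confidence interval -4.52 to -3.76, adjusted p = 2.1e-09). It was the only one of the 10 genes that passed the test against a fold change of 2. The KEAP1null-KYSE450 values were still well above the floor of 3 reads, which was 2.77 to 3.21 normalized counts.

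The other TAM receptors and the ligands lay on both sides of 0. TYRO3 and MERTK, the remaining receptors, had log2 fold changes of -0.19 (adjusted p = 0.28) and 0.54 (adjusted p = 0.12). The ligand GAS6 was lower by adjusted p alone, with 841, 639 and 579.9 normalized counts in KYSE450 and 422, 334 and 336 in KEAP1null-KYSE450 (log2 fold change -0.90, adjusted p = 6.3e-04). GAS6 was called lower without KYSE450 library 3 (-1.02) and without KEAP1null-KYSE450 library 1 (-1.01). PROS1, protein S, a ligand of TYRO3 and MERTK, was called higher, with 263, 273 and 223 normalized counts in KYSE450 and 560.1, 521 and 448 in KEAP1null-KYSE450 (log2 fold change 1.01, SE 0.15, adjusted p = 1.6e-04). PROS1 sat at the fold change threshold and fell under it without KYSE450 library 3 (0.92), without KEAP1null-KYSE450 library 1 (0.94) or library 2 (0.99), with a pseudocount of 10 (0.98) and under quantile normalization (0.88).

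A broader list of 22 conserved YAP and TAZ target genes, which includes 6 of the 10 genes (CCN1, CCN2, ANKRD1, AMOTL2, LATS2 and AXL), also moved in both directions. In it 2 genes were called higher and 7 lower, and 4 were higher and 11 lower by adjusted p alone. Of the 22, 16 had a log2 fold change below 0, and the median was -0.52. The 16 genes of the list outside the 10 had 1 gene called higher, 5 called lower and a median of -0.40, beside 0.004 for all genes tested. Over all genes tested, 12.2% were called higher and 5.98% lower, and 24.3% were higher and 25.5% lower by adjusted p alone. Of these 16701 genes, 8307 had a log2 fold change below 0. The list is described by these counts and was not tested as a set. RBMS3, an RNA-binding protein, was the other gene called higher, with 181, 198 and 171 normalized counts in KYSE450 and 1173, 1184 and 984 in KEAP1null-KYSE450 (log2 fold change 2.59, SE 0.14, adjusted p = 1.6e-08).

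Of the genes of the list called lower outside the 10, TGFB2, a ligand of the TGF-beta receptors, had the most negative log2 fold change. It had 229.9, 216 and 275 normalized counts in KYSE450 and 15.7, 2.04 and 2.02 in KEAP1null-KYSE450 (log2 fold change -5.49, SE 0.56, adjusted p = 6.9e-06). The value of KEAP1null-KYSE450 library 1 was above the others of its line, of which both were below the floor of 3 reads, so the size of the change depends on the pseudocount. NT5E, the ectoenzyme CD73, had a similar pattern at a lower level, with 35.3, 38.4 and 50.3 against 16.6, 1.02 and 4.04 normalized counts (log2 fold change -2.89, SE 0.69, adjusted p = 0.0038, and -1.67 with a pseudocount of 10). F3, tissue factor, had 689, 646 and 571 normalized counts in KYSE450 and 238, 203 and 231 in KEAP1null-KYSE450 (log2 fold change -1.50, SE 0.14, adjusted p = 4.1e-06).

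MYOF, myoferlin, a membrane repair protein, was the most abundant of the called targets, with 31934, 22753 and 23584 normalized counts in KYSE450 and 10480, 9198 and 7780 in KEAP1null-KYSE450 (log2 fold change -1.50, SE 0.14, adjusted p = 3.2e-06). FOXF2, a forkhead factor, had a log2 fold change of -1.07 (SE 0.13, adjusted p = 3.1e-05), which was -0.98 without KEAP1null-KYSE450 library 2 and then no longer called. Among the uncalled targets, ASAP1 and CCDC80 were higher by adjusted p alone, with log2 fold changes of 0.81 and 0.73. DOCK5, IGFBP3 and CRIM1 were lower by adjusted p alone, with log2 fold changes of -0.96, -0.70 and -0.45. DOCK5 was called lower without KYSE450 library 2 (-1.03), without KEAP1null-KYSE450 library 1 (-1.01) and in DESeq2 (-1.004). The libraries of IGFBP3 and CRIM1 overlapped between the lines, and each lost the threshold in 7 of 16 other settings. The adjusted p was up to 0.204 for IGFBP3, in edgeR, where its log2 fold change was -0.39, and up to 0.125 for CRIM1. IGFBP3 was at -0.46 without KEAP1null-KYSE450 library 3, and CRIM1 was at -0.29 without KYSE450 library 1. CCDC80 missed the threshold in 3 settings, among them without KYSE450 library 3 (0.43) and without KEAP1null-KYSE450 library 1 (0.56). GADD45A, ARHGEF17, FJX1, PTPN14 and NUAK2 lay between -0.35 and 0.28 and did not pass either threshold. GADD45A and ARHGEF17 were higher by adjusted p alone in some other settings, such as quantile normalization (adjusted p = 0.033 for both).

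**Figure D5:**
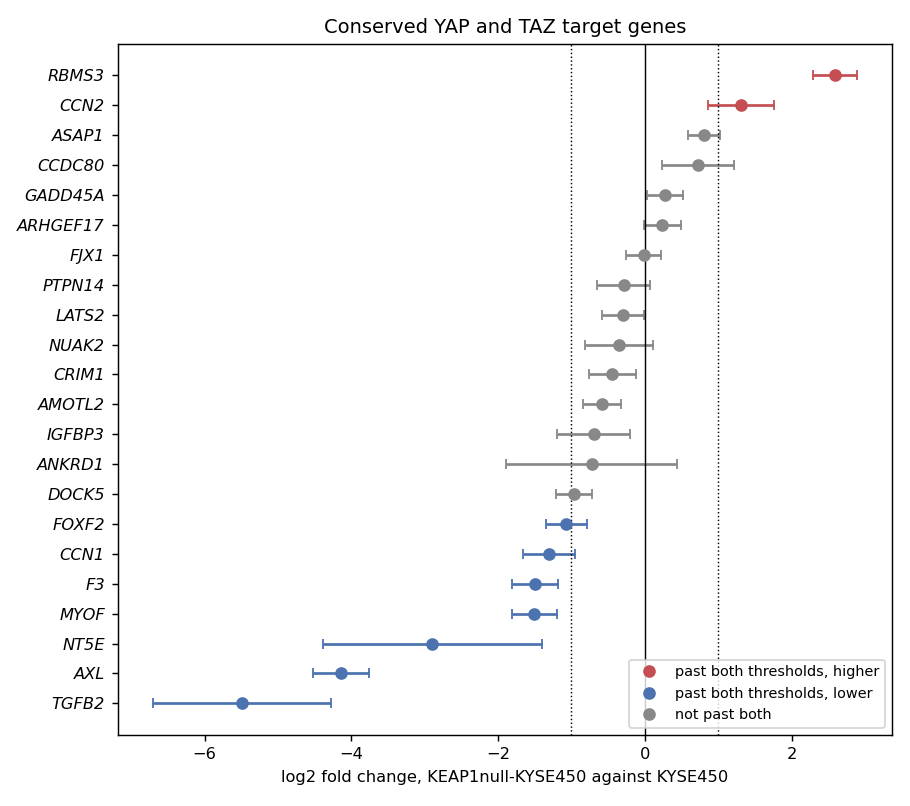
Log2 fold change of the 22 conserved YAP and TAZ target genes, KEAP1null-KYSE450 against KYSE450, with points at the limma estimate, bars for the 95% confidence interval and dotted lines at -1 and 1. RBMS3 and CCN2 in red were called higher, the 7 genes in blue from FOXF2 at -1.07 to TGFB2 at -5.49 were called lower, and the 13 in grey did not pass both thresholds.

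Several YAP targets, CCN1 and CCN2 among them, are also targets of SRF and its actin-regulated cofactors MRTFA and MRTFB, so a list of 16 MRTF and SRF genes was examined beside them. Of the 14 tested, 1 was called higher and 2 lower, 3 were higher and 8 lower by adjusted p alone, and the median log2 fold change was -0.45. The shares over all genes tested were 12.2% and 5.98% called, and 24.3% and 25.5% by adjusted p alone. TAGLN, the actin-binding protein transgelin, had 338, 347 and 393 normalized counts in KYSE450 and 10.2, 14.3 and 25.2 in KEAP1null-KYSE450 (log2 fold change -4.45, SE 0.31, adjusted p = 2.0e-07). FLNA, filamin A, had 54876, 33742 and 32097 against 15649, 13938 and 12957 normalized counts (log2 fold change -1.46, adjusted p = 2.0e-05). ACTA2, smooth muscle actin, was called higher, with 439, 353 and 331 against 1238, 1070.4 and 899 normalized counts (log2 fold change 1.51, adjusted p = 6.5e-06). ACTA2 and TAGLN, both on this list, thus moved in opposite directions, as did CCN2 and CCN1. The cause was not tested.

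Arranged by mean level per kilobase of exon, taken as the union over annotated transcripts, the 10 genes ran in KYSE450 from YAP1 (1823 normalized counts per kb) and AJUBA (834) through WWTR1 and TEAD1 (both 332), AXL (229.97), AMOTL2 (225), CCN1 (178), LATS2 (82.9) and CCN2 (50.4) to ANKRD1 (11.995). The libraries of WWTR1 and TEAD1 overlapped, as did those of AXL and AMOTL2, and each other neighbouring pair was separated. In KEAP1null-KYSE450 the order was YAP1 (2053), AJUBA (661), WWTR1 (645), TEAD1 (334), AMOTL2 (150.1), CCN2 (128), CCN1 (71.9), LATS2 (67.7), AXL (12.8) and ANKRD1 (7.80). Here the libraries of AJUBA and WWTR1, of AMOTL2 and CCN2, of CCN1 and LATS2 and of AXL and ANKRD1 overlapped. AXL thus moved from the fifth to the ninth place and CCN2 from the ninth to the sixth. With the length of the longest annotated transcript in place of the exon union, AMOTL2 (299 normalized counts per kb) lay above AXL (250.3) in KYSE450, which put AXL in the sixth place there, and WWTR1 lay above AJUBA in KEAP1null-KYSE450. The transcripts these cells use were not measured.

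The chromosomal surroundings of each gene were examined with the median log2 fold change of its 20 nearest genes with a mean of at least 100, 10 on each side. The median was -0.20 around AXL, 0.19 around CCN1 and 0.24 around CCN2, beside log2 fold changes of -4.14, -1.30 and 1.31 for the genes themselves. It was 0.12 around WWTR1, -0.18 around AMOTL2 and -0.41 around TEAD1. Around ANKRD1 it was -0.26, around LATS2 0.16, around AJUBA -0.05 and around YAP1 -0.002. The neighbours of TEAD2 had a median of -0.29, those of TEAD3 one of -0.42 and those of TEAD4 one of -0.40. The log2 fold changes of these 3 genes were -1.75, -0.58 and -0.90. The part of the surroundings in the differences was not tested. Because these are bulk libraries, fewer cells with a transcript and less transcript per cell cannot be told apart for AXL, CCN1, CCN2 or any other gene described.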

How the data were processed

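RNA sequencing of 3 KYSE450 and 3 KEAP1null-KYSE450 libraries was analysed. By the methods and the submitters' processing notes, reads that passed quality filters were aligned to hg38 (STAR, version 2.6.90c) and assigned to genes (featureCounts, version 1.5.1), and the authors then normalized the counts. The unit of the deposited values is therefore a signal, the normalized count. Each value is a whole number of reads divided by 1 factor per library. In all 6 libraries 100% of values were whole multiples of the smallest step, within 0.02 of a step. The step was too close to 1 in KYSE450 library 2 and KEAP1null-KYSE450 library 3 to tell reads from normalized counts, so reads were taken as recovered in the other 4 (53027359 to 61543442 reads). The methods name a RefSeq annotation, but the matrix carries Ensembl identifiers, of which 58472 are in gencode v44, the source of positions and exon lengths. The floor of 3 reads covers counting error only.

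The lines were compared with the trended eBayes fit of limma (version 3.58.1, in R 4.3.3) after adding 1 and taking log2. The 16701 genes whose mean over all libraries reached 10 were tested. P-values were two-sided and adjusted by the Benjamini-Hochberg method. Both thresholds (0.05 for the adjusted p and 1 for the log2 fold change) follow the methods. The test was checked on simulated data. Columns are labelled by line alone, so libraries are numbered by column order. The 10 genes and all lists were chosen with earlier results of these data known. Named from the other lists were the genes past both thresholds, at most 5 in each direction, with further genes given for context after their values were seen. Alternatives changed the pseudocount (0.1 or 10), the filter (none, or a mean of 100), the scaling (equal totals, or quantile normalization), the eBayes fit (without trend, or robust) and the fold change threshold (none, or limma's treat against 2-fold), left out each library, or used edgeR (version 4.0.16) and DESeq2 (version 1.42.0) on the recovered reads.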

Additional observations from a re-analysis of the deposited data

How the results depend on the processing

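No paired analysis was possible because the columns of the matrix carry no replicate number. Of all genes, 2045 were called higher and 999 lower. With a mean of at least 100 the number higher was 875, a count taken over fewer genes. The test against a fold change of 2 gave 626 higher and 395 lower, and no fold change cutoff gave 4060 and 4251. edgeR on 4 libraries called 1826 higher and 872 lower, and DESeq2 called 1623 and 877. Leaving out each library gave 1708 to 2057 higher and 860 to 1106 lower, and in each of those fits 1 of the 10 genes was called higher and 2 lower.

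Of the 10 genes, 2 were called higher under quantile normalization (WWTR1 beside CCN2), 2 with no fold change cutoff and 0 in the test against a fold change of 2, a limma test under which 1 gene, AXL, was called lower and, at an unadjusted p under 0.05, 0 were higher. edgeR and DESeq2 each called 1 higher. With no cutoff 4 were lower. The log2 fold change of TEAD1, 0.03, changed sign in edgeR (-0.065) and DESeq2 (-0.095) and ranged from -0.11, without KYSE450 library 2, to 0.16, without KYSE450 library 1, when each library was left out. The median of the 22 conserved target genes, -0.52, was -0.40 with a mean of at least 100 and lay between -0.55 and -0.40 when each library was left out, the latter without KYSE450 library 1. For the changes under quantile normalization and for TEAD1, the cause was not tested. Depth limits ANKRD1, TGFB2 and NT5E, which have few reads in at least 1 line.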
